A study of Mus musculus with 12 samples.

Results

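The genes described here are 10 regulators of mineralization and vascular calcification, Spp1, Ibsp, Bglap, Alpl, Enpp1, Ank, Mgp, Bmp2, Runx2 and Sp7, chosen by their symbols from the 25284 genes of a raw count table. RNA sequencing was performed on the aorta (thoracic aorta per the sample labels) of 12 male ApoE-/- mice on a C57BL/6 background, which lack apolipoprotein E and develop atherosclerosis. All 12 mice were fed a high fat diet enriched in cholesterol from 10 weeks of age, carried subcutaneous osmotic minipumps for 8 weeks and were 18 weeks old at the end. In 6 mice (called A1 to A6) the pumps delivered AZ6983, an agonist of the α7 nicotinic acetylcholine receptor, at 50 µmol per kg per day, and in the 6 control mice (C1 to C6) they delivered vehicle, cyclodextrin in saline. Every mouse carried the Apoe deletion, so Apoe does not separate the groups, and the labels name no batch, litter or pairing.

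Bone and cartilage mineralize when phosphate and calcium form crystals on a collagen matrix. Pyrophosphate blocks crystal growth, and its level outside the cell is set by Enpp1, which makes it from ATP, by Ank, a membrane protein needed for its release or that of ATP, and by Alpl, the phosphatase that degrades it. Matrix Gla protein (Mgp) restrains calcification in the arterial wall, and mice without it calcify their arteries. Bone morphogenetic protein 2 (Bmp2) and the transcription factors Runx2 and Sp7 (osterix) drive cells towards bone formation, and Ibsp, Bglap and Spp1 encode the matrix proteins bone sialoprotein, osteocalcin and osteopontin. Osteopontin is also secreted by macrophages and smooth muscle cells of atherosclerotic plaques.

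The libraries held 23810036 to 35864666 counts on genes. Values are given as raw counts or as CPM, the count relative to the library size scaled by TMM in edgeR. Smooth muscle markers were abundant in all 12 libraries, with Myh11, the smooth muscle myosin heavy chain, between 4551 CPM in A5 and 7014 CPM in A1. Some libraries stood apart. In A5 the 10 most abundant genes took 30.2% of the counts, in A4 a list of T cell and thymocyte markers summed to 894 CPM against at most 36.2 CPM elsewhere, and reads assigned to no gene took 10.1% ± 1.55 of control libraries and 12.8% ± 1.36 of AZ6983 libraries (SD, n = 6 per group, exact permutation test, two-sided, p = 0.0108). Such reads may still lie inside a gene, in parts that were not counted. In bulk RNA, fewer cells of a type and less RNA per cell cannot be told apart.

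No member passed the 10% false discovery rate (FDR) of edgeR's quasi-likelihood test. Of the 10 members, 8 passed its filter on low counts and were tested, and the share of all 15857 tested genes called at that threshold was 0%. The log2 fold change of AZ6983 over control was below 0 for 6 of the 8 (Spp1, Ibsp, Mgp, Enpp1, Ank and Alpl), as it was for 47.6% of all tested genes, and above 0 for Bmp2 and Runx2, with a median of −0.15 against 0.0090 over all tested genes. Ibsp and Mgp had an unadjusted p under 0.05, both lower in AZ6983 mice, where 10.2% of all tested genes had such a p, 2.81% with lower and 7.38% with higher levels. For none of the 8 did all AZ6983 mice lie on one side of all control mice, which was seen for 0.41% of all tested genes (0.151% lower and 0.259% higher in AZ6983 mice). By DESeq2, which called 0.523% of the 17592 genes it tested (0.153% as lower), 1 member passed 10% FDR, namely Ibsp.

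The members spanned a wide range of levels in the control aorta. Per kilobase of exon, Mgp stood highest at 1022 ± 171 CPM (SD, n = 6), followed by Spp1 at 123 ± 63.9 CPM and Ank at 31.9 ± 1.95 CPM. The ranges of mean ± SD overlapped for Enpp1 at 4.67 ± 0.461 and Alpl at 4.05 ± 0.992 CPM per kilobase, and for Ibsp at 1.98 ± 2.40 and Bmp2 at 1.69 ± 0.228 CPM per kilobase. Runx2 was lower, at 0.128 ± 0.0662 CPM per kilobase and 15 to 64 counts per mouse. Sp7 (0.0374 ± 0.0254) and Bglap (0.0107 ± 0.0261 CPM per kilobase) were lowest, with at most 7 counts in any mouse. The inhibitor was therefore the most abundant member of the set, and the bone transcription factors and osteocalcin were the least abundant.

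**Figure D1:**
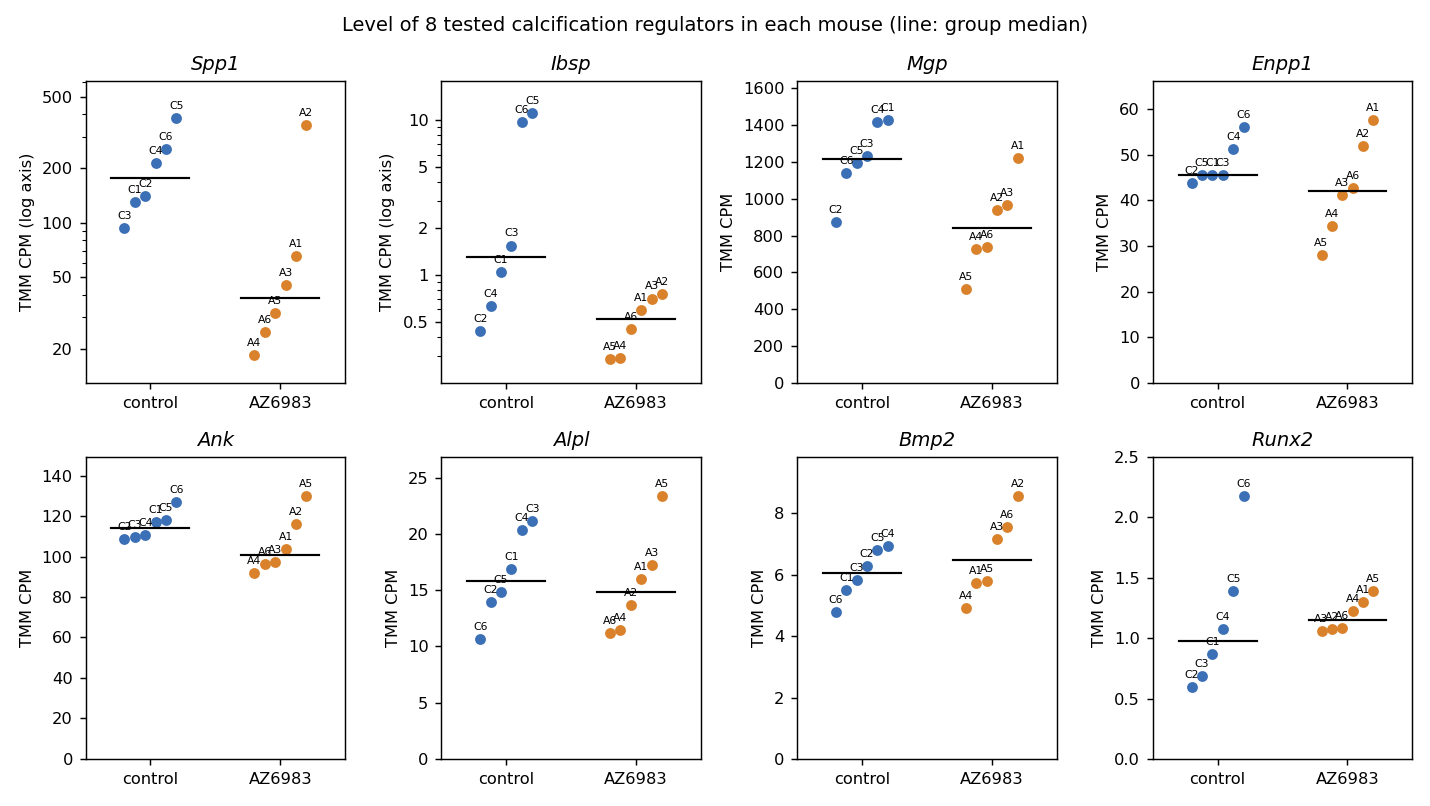
Level of each of the 8 tested members in each mouse, as TMM CPM (log axis for Spp1 and Ibsp, linear axes from 0 for the others), with 6 control mice in blue, 6 AZ6983 mice in orange and a line at each group's median. For Spp1, 5 AZ6983 mice lie below every control and A2 lies at 347 CPM, and for Ibsp C5 and C6 lie far above the other 10 mice.

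Among the 8 tested members, Ibsp and Spp1 had the largest shares of their counts in a single mouse. They are neighbours on chromosome 5 of GRCm38, the assembly also named mm10. Ibsp lies at chr5:104299171-104311469 and Spp1 at chr5:104435118-104441050, both on the plus strand, 123648 bases apart with Mepe, another bone matrix gene, as the 1 annotated gene between them. Of the 75-base stretches of Spp1 transcripts 8.55% also occur in Gm42793, another annotated gene, so reads from them may not have been counted for Spp1. The 2 neighbours were highest in the same control mice, and the sequence upstream of Spp1 is shown because it was the more abundant of them. RefSeq gives 2 promoter windows for Spp1. The sequence shown is the 250 bases before the upstream start (chr5:104434861-104435110, GRCm38.p6), with a match to TATAAA beginning 211 bases and one to ACCACA, the reverse complement of the RUNX core TGTGGT, beginning 128 bases before that start in capitals.
Spp1: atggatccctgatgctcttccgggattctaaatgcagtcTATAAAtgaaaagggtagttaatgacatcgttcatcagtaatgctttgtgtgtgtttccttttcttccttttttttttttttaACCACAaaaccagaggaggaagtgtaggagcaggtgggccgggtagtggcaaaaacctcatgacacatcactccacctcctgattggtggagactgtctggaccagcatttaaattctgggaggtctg
Searched on both strands, this window held no match to the AP-1 motif TGANTCA, and the 250 bases before the other start (chr5:104435942-104436191) held no match to any of the 3 motifs. Of 32851 RefSeq promoter windows of that length, 14.0% held TGTGGT, 12.4% TATAAA and 6.75% TGANTCA. A match describes letters and is not evidence of a bound site.

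Spp1, encoding osteopontin, was lower in 5 of the 6 AZ6983 mice than in any control. In control mice its counts were 3753 in C1, 3581 in C2, 2709 in C3, 5728 in C4, 10991 in C5 and 7491 in C6. In AZ6983 mice they were 1761 in A1, 9641 in A2, 1149 in A3, 695 in A4, 772 in A5 and 669 in A6. The groups overlapped through A2 alone, which lay above 5 of the 6 controls. In CPM, controls ranged from 93.4 to 381 (median 177) and AZ6983 mice from 18.5 to 347 (median 38.3). The highest AZ6983 value was 18.8 times the lowest, against 4.08 times in controls. The level was 202 ± 105 in control and 88.7 ± 128 CPM in AZ6983 mice (mean ± SD, n = 6 per group). The SD of the AZ6983 group was larger than the difference between the group means. The log2 fold change of −1.19 (standard error, SE, 0.677, 95% interval −2.66 to 0.27) had an adjusted p of 0.543 from edgeR. On the scale of log2(CPM + 0.5) the group means differed by −1.86 (exact permutation test, two-sided, n = 6 per group, p = 0.026, unadjusted, 1 of 10 such tests). The size of the Spp1 difference depended on single mice and on the fit, though its sign did not in any of them. Without A2, edgeR gave −2.46 (SE 0.414, adjusted p = 0.269) and the groups did not overlap. With a covariate for the share of reads assigned to no gene it gave −2.86 (SE 0.987), with limma-voom −1.87 (SE 0.626), and without C5 and C6 −0.71 (SE 0.758).

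Of the 48940 Spp1 counts over the 12 mice, C5 held 22.5%, C5 and A2 together 42.2%, and C5, A2 and C6 together 57.5%. An even division would give each mouse 8.33%, and for the median tested gene the highest mouse held 11.8% and the highest 2 held 21.8%. The share in the highest mouse placed Spp1 at percentile 93.7 of all tested genes. A2, an AZ6983 mouse, thus contributed 9641 of the 14687 Spp1 counts of its group.

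Summed marker levels of some other cell types were correlated with Spp1 across the mice. The 12 markers of macrophages and foam cells, all tested, summed to 2087 to 2997 CPM in controls, highest in C5, and to 1884 to 2611 CPM in AZ6983 mice, highest in A2. Of these markers 9 were lower and 3 higher in AZ6983 mice, with 0 past 10% FDR by edgeR or DESeq2 and 1 with an unadjusted p under 0.05 (10.2% of all tested genes had such a p), and no defining marker was at 0. Cd68, a lysosomal protein of macrophages, had a log2 fold change of −0.04 (SE 0.278), Adgre1 (F4/80) one of 0.10 (SE 0.152) and Csf1r one of 0.09 (SE 0.116). Each of these 3 defining markers was at most 134 CPM in any mouse, so other genes of the list made up most of the sum. In A5, Cd68 was at 11.9 CPM, the lowest of the 12 mice, while the sum was 2512 CPM. Over the 12 mice, which share library and depth with the markers, log2 Spp1 had a Pearson r of 0.83 and a Spearman rho of 0.88 with the summed macrophage level, and r was 0.73 after removing the group means. The 9 neutrophil and bone marrow markers summed to 12.4 to 46.4 CPM in controls, lowest in C6 and C5, and to 28.1 to 223 CPM in AZ6983 mice, lowest in A2. Their 5 tested members were all higher in AZ6983 mice with an unadjusted p under 0.05 (7.38% of all tested genes were higher with such a p) and 0 past 10% FDR by edgeR. By DESeq2, which tested 7 of the 9, 3 were called as higher, namely Ltf, Ngp and Camp (adjusted p = 0.00654, 0.0267 and 0.0811). The summed level of the list had an r of −0.84 with Spp1 over the mice, −0.71 within groups. The defining markers Ngp, Camp and Ltf were above 0 in every mouse, while 3 genes of that list were at 0 in some. The part of either cell type in the Spp1 values was not tested.

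Ibsp, encoding bone sialoprotein, a matrix protein that seeds crystals in bone, had the largest fold change of the members and rested on 2 control mice. Its counts in controls were 30 in C1, 11 in C2, 45 in C3, 17 in C4, 323 in C5 and 286 in C6. In AZ6983 mice they were 16 in A1, 21 in A2, 18 in A3, 11 in A4, 7 in A5 and 12 in A6. C2 and C4 lay inside the range of the AZ6983 mice. C1 and C3 lay above it, at 1.05 and 1.55 CPM, and C5 and C6 an order of magnitude above it. Controls ranged from 0.435 to 11.2 CPM (median 1.30) and AZ6983 mice from 0.286 to 0.755 CPM (median 0.521). The level was 4.10 ± 4.97 in control and 0.513 ± 0.203 CPM in AZ6983 mice (mean ± SD, n = 6 per group). The control SD of Ibsp was larger than the control mean. The log2 fold change of −2.99 had an SE of 0.808 and a 95% interval of −4.74 to −1.25. Its adjusted p was 0.447 from edgeR (unadjusted p = 0.0027) and 0.0201 from DESeq2, so the call differed between the tools. The exact permutation test of log2(CPM + 0.5), two-sided, with n = 6 per group, gave an unadjusted p of 0.0303.

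Of the 797 Ibsp counts, C5 held 40.5% and C5 and C6 together held 76.4%, which placed Ibsp at percentiles 98.1 and 99.7 of all tested genes for the share in the highest mouse and in the highest 2. Control mice held 712 counts and AZ6983 mice 85. The ratio of the highest to the lowest mouse was 25.7 in controls and 2.64 in AZ6983 mice. With C5 and C6 left out, a choice made after seeing the data, the log2 fold change was −0.84 (SE 0.399, adjusted p = 0.530 from edgeR) and the permutation p was 0.119.

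**Figure D2:**
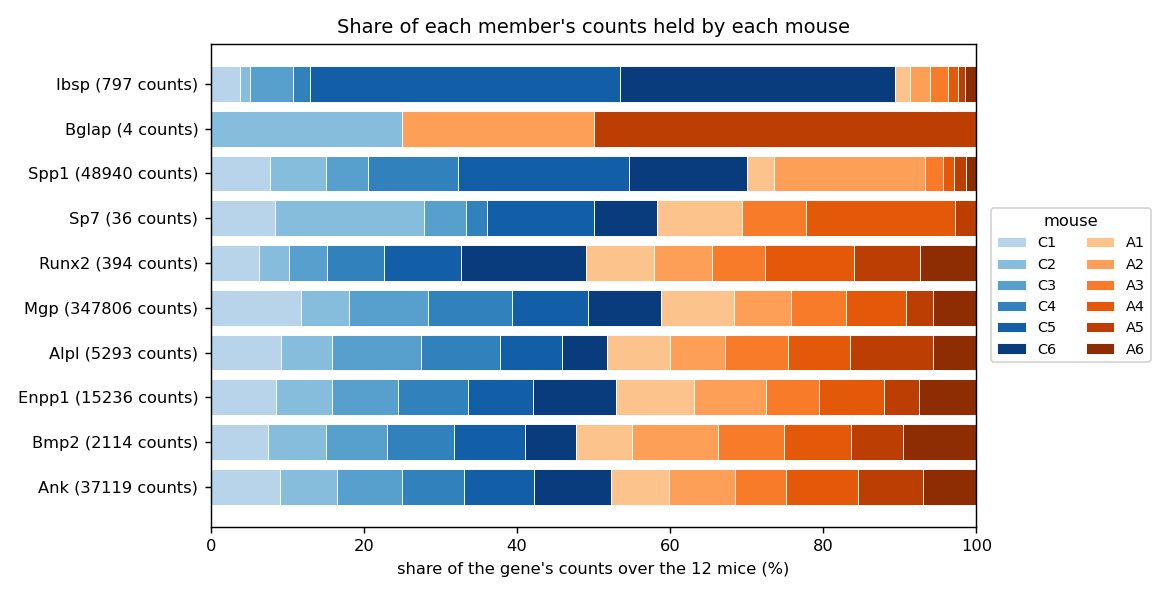
Share of each member's counts, summed over the 12 mice, that each mouse held (bars to 100%, control mice in blues and AZ6983 mice in oranges, total counts in parentheses). C5 and C6 held 76.4% of Ibsp and C5 and A2 held 42.2% of Spp1, while the highest mouse held at most 11.7% of Mgp, Alpl, Enpp1, Bmp2 and Ank.

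The mice that were high in Ibsp were also high in Col2a1, the main collagen of cartilage. Col2a1 had 77, 8, 493, 67, 782 and 796 counts in C1 to C6 and 4, 50, 3, 18, 20 and 6 in A1 to A6, so that C5 and C6 were again highest, while C3 was high in Col2a1 with 45 Ibsp counts. Its log2 fold change was −4.41 (SE 1.001, adjusted p = 0.447 from edgeR), and its adjusted p was 0.00654 from DESeq2, so the call differed between the tools as for Ibsp. Of 17 cartilage markers 16 were in the table and 12 were tested, 9 lower and 3 higher in AZ6983 mice, with 2 at an unadjusted p under 0.05 (10.2% of all tested genes had such a p) and 0 past 10% FDR by edgeR. DESeq2 tested 15 of them and called 2 as lower, Col2a1 and Clec3a. The 16 genes summed to 234 to 336 CPM in controls and 171 to 313 CPM in AZ6983 mice, of which Cytl1 made up 43.4% to 68.2%. Acan (aggrecan), Comp and Col2a1 were above 0 in every mouse and 4 other cartilage genes were at 0 in some mice. The Ibsp level had a Pearson r of 0.83 with Col2a1 over the 12 mice (Spearman rho 0.70, r of 0.73 within groups). With the summed cartilage level, which was highest in C1, its r was 0.55 (rho 0.70, within groups 0.36). The part of cartilage cells in the Ibsp values was not tested.

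Osteocalcin and osterix, the members most restricted to bone-forming cells, were barely detected. Bglap (chr3:88383501-88384464, minus strand) had 4 counts in all, 1 in C2, 1 in A2 and 2 in A5, with 0 in the other 9 mice. A count of 0 allows a level of up to 3 counts, or 0.0798 to 0.123 CPM depending on the mouse, for counting error only. The related gene Bglap2 had 2 counts, both in A4. These genes lie in tandem on chromosome 3 and are nearly identical, and the first 120 coding bases of each in GRCm38 (GENCODE M21) are shown because reads from them cannot always be assigned to 1 gene, with capitals marking bases that differ from Bglap.
Bglap: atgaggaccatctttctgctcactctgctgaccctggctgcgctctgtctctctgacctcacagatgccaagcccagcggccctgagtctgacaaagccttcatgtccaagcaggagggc
Bglap2: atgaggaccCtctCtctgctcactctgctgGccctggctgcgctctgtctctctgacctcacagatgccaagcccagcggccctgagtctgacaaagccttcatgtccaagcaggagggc
Bglap3: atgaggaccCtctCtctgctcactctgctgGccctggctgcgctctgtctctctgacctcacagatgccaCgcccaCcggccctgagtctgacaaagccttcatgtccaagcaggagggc
Over the whole coding sequence of 285 bases, Bglap2 differed from Bglap at 4 bases (98.6% identity) and Bglap3 at 13 (95.4% identity). Of the 75-base stretches of Bglap transcripts, 50.0% also occurred in Bglap2 or Bglap3. Reads that aligned to more than 1 place were set aside in the table, so the Bglap counts are uncertain and may be too low. Bglap3 was not among the genes with deposited counts. Sp7 (chr15:102356606-102367182, minus strand) had 36 counts, 21 in controls and 15 in AZ6983 mice, 0 to 7 per mouse, with at least 1 count in 10 of the 12 mice. C2 and A4 held 7 each, and a difference between the groups was not detectable at this depth (exact permutation test, two-sided, n = 6 per group, p = 0.359). Neither Bglap nor Sp7 entered the test across genes.

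Runx2, the transcription factor that acts before Sp7 in bone-forming cells, was detected in every mouse at a low level. It lies at chr17:44495987-44814797 on the minus strand, and 5.13% of its 75-base stretches occur in other genes, among them the antisense gene Runx2os1. Its counts were 25, 15, 20, 29, 40 and 64 in C1 to C6 and 35, 30, 27, 46, 34 and 29 in A1 to A6. C6 and C5 were highest among controls, as for Ibsp, and the AZ6983 mice all lay inside the control range. The level was 1.13 ± 0.585 in control and 1.19 ± 0.137 CPM in AZ6983 mice (mean ± SD, n = 6 per group), and the log2 fold change was 0.07 (SE 0.283, 95% interval −0.55 to 0.68, adjusted p = 0.949 from edgeR). The control mice spread 3.67-fold and the AZ6983 mice 1.31-fold. The sign of this fold change was negative without C2, without C3 or without A5, and without both C5 and C6 the permutation p was 0.0143, with higher values in AZ6983 mice. C5 and C6 were the highest controls for Runx2 and their removal was chosen after seeing the data, so this p is no support for a difference.

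Bmp2, a ligand that induces Runx2, lies at chr2:133552159-133562885 on the plus strand and had 141 to 238 counts per mouse. It ranged from 4.80 to 6.92 CPM in controls (median 6.06) and from 4.92 to 8.56 CPM in AZ6983 mice (median 6.49). A2, A6 and A3 lay above every control and the other 3 AZ6983 mice within the controls' range. The log2 fold change of 0.14 (SE 0.145, 95% interval −0.18 to 0.45, adjusted p = 0.736 from edgeR) was within the spread between mice, and it was −0.10 with the covariate for reads assigned to no gene.

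Mgp, the inhibitor of arterial calcification, was the second member with an unadjusted p under 0.05. It lies at chr6:136872435-136875823 on the minus strand. Its levels in controls were 1424 CPM in C1, 875 in C2, 1232 in C3, 1415 in C4, 1194 in C5 and 1140 in C6. In AZ6983 mice they were 1222 CPM in A1, 941 in A2, 966 in A3, 725 in A4, 508 in A5 and 736 in A6. A4, A5 and A6 lay below every control, the other 3 within the controls' range, and C2 was the lowest control. The level was 1213 ± 203 in control and 850 ± 247 CPM in AZ6983 mice (mean ± SD, n = 6 per group). The log2 fold change was −0.51 (SE 0.189, 95% interval −0.92 to −0.11), with an unadjusted p of 0.0175 and an adjusted p of 0.450 from edgeR and an adjusted p of 0.248 from DESeq2. The exact permutation test, two-sided, with n = 6 per group, gave an unadjusted p of 0.026. Mgp thus did not pass 10% FDR with either tool. No single mouse held more than 11.7% of the 347806 Mgp counts. A5, the lowest mouse, also had the lowest sum of the 8 smooth muscle markers (10615 CPM, against 13635 to 18157 CPM in controls and 14442 to 18171 CPM in the other AZ6983 mice), and without A5 the log2 fold change was −0.42 (SE 0.161, adjusted p = 0.326). Of the smooth muscle markers, 5 were lower and 3 higher, 1 with an unadjusted p under 0.05 (10.2% of all tested genes had such a p) and 0 past 10% FDR by edgeR or DESeq2, and none of Myh11, Acta2 and Tagln was at 0. Over the 12 mice log2 Mgp had a Pearson r of 0.74 with the summed smooth muscle level (rho 0.59, within groups 0.84). It had an r of 0.94 with the summed level of the 16 cartilage markers (rho 0.85, within groups 0.93), which was also lowest in A5. Of these markers 12 were tested and 9 were lower in AZ6983 mice. Cytl1 alone made up 43.4% to 68.2% of the sum. Col2a1 was at 0.149 CPM in A1 and 0.817 CPM in A5, the AZ6983 mice highest and lowest for Mgp. Among controls, C2 was lowest for both genes. A5 also had the highest summed level of 6 brown fat markers, 5591 CPM, against 2659 to 4284 CPM in controls and 2172 to 2872 CPM in the other AZ6983 mice. Its sum of 6 white adipocyte markers was highest too, 5828 CPM, against 2587 to 4822 and 2987 to 3932 CPM. Log2 Mgp had an r of −0.53 with the white adipocyte sum (rho −0.29, within groups −0.74) and −0.06 with the brown fat sum (rho 0.10, within groups −0.60). The part of any of these cell types in the Mgp values was not tested. With a covariate for the share of reads assigned to no gene the log2 fold change of Mgp was −0.19 (SE 0.248).

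The genes that set extracellular pyrophosphate had log2 fold changes of −0.17 to −0.08, none past the threshold. Enpp1 (chr10:24637914-24712159, minus strand) ranged from 43.7 to 56.1 CPM in controls (median 45.6) and from 28.0 to 57.5 CPM in AZ6983 mice (median 42.0). Of the AZ6983 mice, 4 lay below every control and A1 above every control, and the log2 fold change was −0.17 (SE 0.148, 95% interval −0.49 to 0.15, adjusted p = 0.677 from edgeR). Ank (chr15:27466677-27594909, plus strand) ranged from 109 to 127 CPM in controls (median 114) and from 91.8 to 130 CPM in AZ6983 mice (median 101). For Ank, A1, A3, A4 and A6 lay below every control and A5, the lowest mouse for Enpp1, above every control. Ank had a log2 fold change of −0.12 (SE 0.0835, 95% interval −0.30 to 0.06, adjusted p = 0.597). Without A5 the permutation p of Ank was 0.0173, and with all mice it was 0.156. Leaving out A5 removes the only AZ6983 mouse above every control, so the smaller p is no support for a difference. Alpl (chr4:137741733-137796384, minus strand) ranged from 10.7 to 21.2 CPM in controls (median 15.9) and from 11.2 to 23.4 CPM in AZ6983 mice (median 14.8). A5 lay above every control and C6 below every AZ6983 mouse, with the other 10 mice within the range of the other group, and the log2 fold change was −0.08 (SE 0.202, 95% interval −0.51 to 0.36, adjusted p = 0.907), or 0.23 with that covariate. The intervals allow a change of either sign for these 3 genes. Over the 12 mice the summed brown fat level, highest in A5, had a Pearson r of 0.62 with log2 Alpl, 0.58 with Ank and −0.34 with Enpp1. The part of fat cells in these values was not tested.

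**Figure D3:**
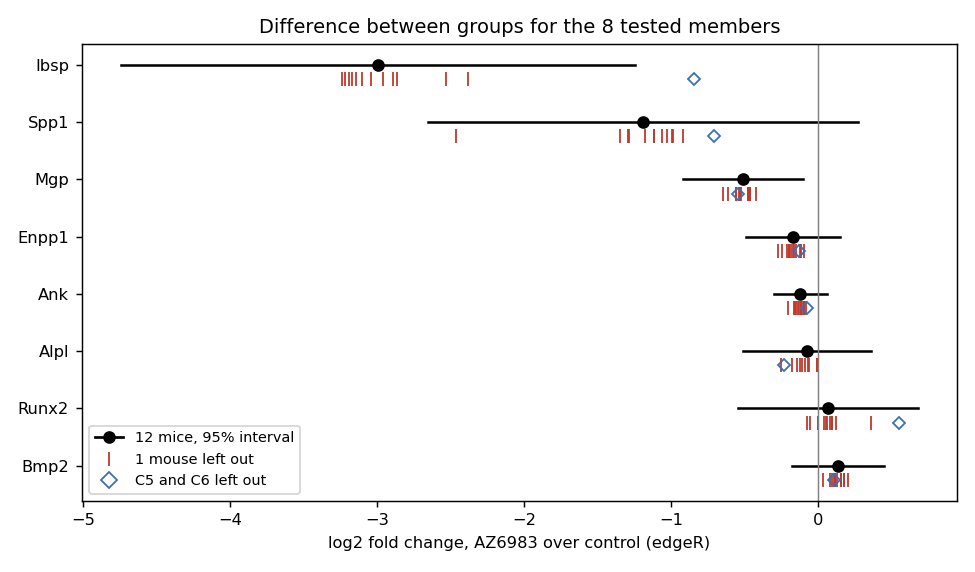
Log2 fold change of AZ6983 over control for the 8 tested members from edgeR (black points, with 95% intervals over 12 mice), with each mouse left out in turn (red ticks) and with C5 and C6 left out together (blue diamonds). Ibsp moves from −2.99 to −0.84 without C5 and C6, Spp1 from −1.19 to −2.46 without A2, and the other 6 members stay between −0.65 and 0.55.

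The members did not vary as 1 block across the mice. Over the 28 pairs of tested members the Pearson r of log2 levels ranged from −0.31 (Alpl and Runx2) to 0.80 (Enpp1 and Mgp), with a median of 0.09, 19 above and 9 below 0. Spp1 and Alpl had an r of −0.00011 and Bmp2 and Runx2 one of −0.28. Spp1 and Ibsp had a Pearson r of 0.67 over the 12 mice on the log2 scale (Spearman rho 0.71), which was 0.47 after removing the group means. Enpp1 and Mgp had an r of 0.80 (rho 0.66, within groups 0.79), and 0.41 after leaving out the 2 mice farthest from the median of Enpp1. These are descriptions over mice that share library and depth.

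For each tested member, the 5 genes with the most similar levels over the 12 mice were taken from the other 15856 tested genes. For Spp1 they were Timp1 (r of 0.97), an inhibitor of matrix metalloproteinases, Il1rn (0.95), the interleukin 1 receptor antagonist, the chemokine Ccl3 (0.93), the collagenase Mmp13 (0.93) and Grin2a (0.92), with r of 0.89 to 0.95 within groups. Timp1 repeated the position of A2, at 38.3 CPM in that mouse, 11.2 to 16.9 CPM in the other AZ6983 mice and 20.7 to 39.01 CPM in controls. Mmp13 was at 3.78 CPM in A2, just above the controls at 1.41 to 3.71 CPM, and at 0.53 to 1.23 CPM in the other AZ6983 mice. None of the 5 passed 10% FDR between the groups by edgeR or DESeq2. For Ibsp they were Ctnna1 (0.89), A930004D18Rik (0.87), Olfml2a (0.86), Anxa5 (0.84) and Col2a1 (0.83), and for several of these the rank correlation was lower, with rho of 0.38 for Olfml2a and 0.51 for Anxa5. Olfml2a was at 43.6 CPM in C5 and 53.9 CPM in C6 and at 31.5 to 35.0 CPM in the other 10 mice.

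**Figure D4:**
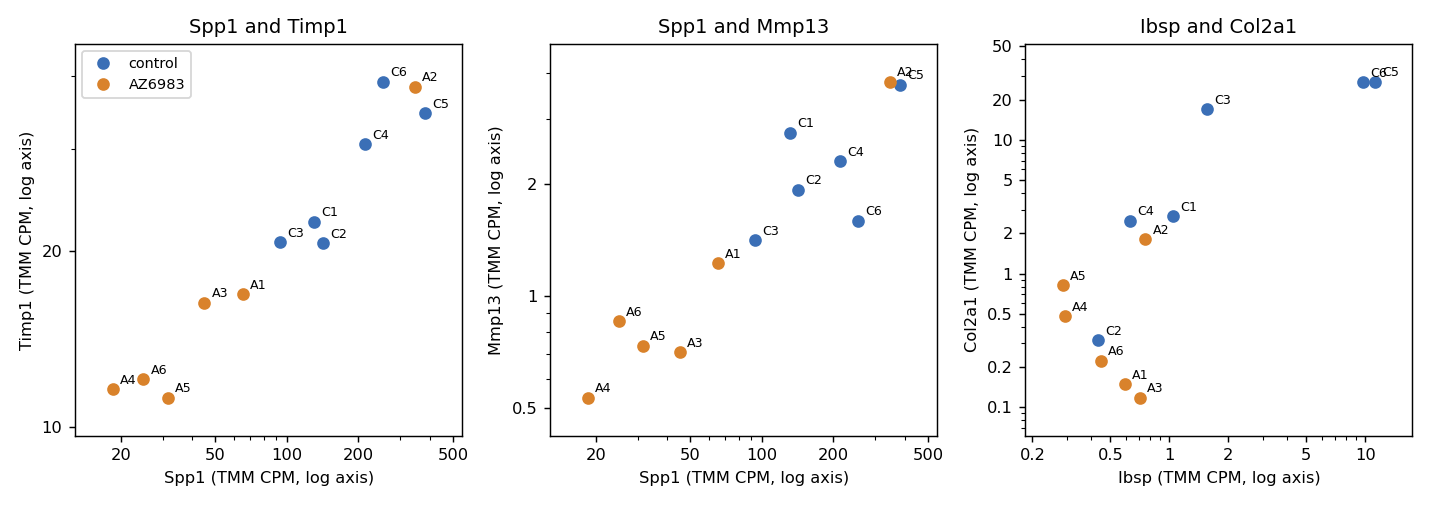
Levels of Spp1 against Timp1 and Mmp13, and of Ibsp against Col2a1, in each of the 12 mice (TMM CPM, log axes, control mice in blue and AZ6983 mice in orange). A2 lies among the controls for Spp1 and Timp1 and just above the highest control for Mmp13, and C5 and C6 lie at the upper right for Ibsp and Col2a1.

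For Mgp the nearest genes were Lhfp (r of 0.98), Cyth3 (0.97), Nt5e (0.96), Cpe (0.95) and Impad1 (0.95). Nt5e encodes CD73, which makes adenosine from AMP and whose loss causes arterial calcification in people, and it ranged from 15.1 to 19.8 CPM in controls and from 9.76 to 18.3 CPM in AZ6983 mice. Its log2 fold change was −0.26 (SE 0.129, adjusted p = 0.504 from edgeR), with A5 lowest as for Mgp. The closest genes to the others were Cyb5d2 for Alpl (r of 0.95), Lrrc75a for Enpp1 (0.97), Gm15551 for Ank (0.93), Numb for Bmp2 (0.89) and A930007I19Rik for Runx2 (0.88).

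Other genes of mineralization were described by 7 lists with 91 genes, of which 86 were in the table and 73 were tested. Of the tested genes 29 were higher and 44 lower in AZ6983 mice, with a median log2 fold change of −0.05 and 0 past 10% FDR by edgeR or DESeq2. Those with an unadjusted p under 0.05 were 7 (9.59%, against 10.2% of all tested genes), 5 lower and 2 higher. Over all tested genes 2.81% were lower and 7.38% higher with such a p.

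Among the other bone matrix genes, 10 were tested, 6 lower and 4 higher, and 3 of them had an unadjusted p under 0.05, all lower. Of all tested genes 10.2% had such a p, 2.81% with lower and 7.38% with higher levels. Omd (osteomodulin, a proteoglycan of mineralized matrix) was at 25.6 ± 4.44 in control and 17.1 ± 4.82 CPM in AZ6983 mice (mean ± SD, n = 6 per group), of which 4 lay below every control. Its log2 fold change was −0.58 (SE 0.181, adjusted p = 0.447 from edgeR). Tnn (tenascin-W, a matrix protein of bone and periosteum) had 23, 8, 32, 47, 30 and 64 counts in C1 to C6 and 4, 36, 1, 2, 0 and 7 in A1 to A6. All AZ6983 mice but A2 lay below every control in Tnn, the same arrangement as for Spp1, with a log2 fold change of −1.99 (SE 0.785, adjusted p = 0.454). Phex, a protease that acts in phosphate balance, had −0.30 (SE 0.134) and Col1a1, the main collagen of bone matrix, 0.47 (SE 0.235), with adjusted p-values of 0.485 and 0.508. The mineralized-tissue genes Dmp1 and Mepe had at most 3 counts in any mouse.

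Of the other phosphate and pyrophosphate genes 9 were tested, 8 lower and 1 higher, with a median of −0.06 and 0 with an unadjusted p under 0.05. Besides Nt5e, the genes of smallest p were Entpd1 (−0.20, SE 0.119), the phosphate exporter Xpr1 (−0.15, SE 0.105) and Slc17a9 (0.23, SE 0.248). Slc17a9 was at most 1.04 CPM in any mouse. Of the further inhibitors of calcification and their activating enzymes, 7 were tested, 6 lower and 1 higher, with a median of −0.12. Tnfrsf11b (osteoprotegerin, a decoy receptor for RANKL) was at 25.3 to 45.4 CPM in controls and at 46.0 CPM in A2 against 14.7 to 27.7 CPM in the other AZ6983 mice. The groups thus overlapped in Tnfrsf11b, with a log2 fold change of −0.42 (SE 0.243, adjusted p = 0.547). Ggcx, the carboxylase that activates Mgp, had −0.12 (SE 0.081). Sost (sclerostin) was abundant, at 450 ± 57.9 in control and 406 ± 89.0 CPM in AZ6983 mice (mean ± SD, n = 6 per group), and Ahsg (fetuin-A) was at 7.67 ± 3.09 and 6.47 ± 1.41 CPM.

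Of the genes of BMP signalling 25 were tested, 13 higher and 12 lower, with a median of 0.02. Id2, an early target of BMP signals, was at 102 ± 21.0 in control and 78.2 ± 10.7 CPM in AZ6983 mice (mean ± SD, n = 6 per group), with a log2 fold change of −0.39 (SE 0.130, adjusted p = 0.450 from edgeR). Smad1, a transducer of those signals, had 0.11 (SE 0.0525), Smad9 −0.24 (SE 0.113) and the BMP modulator Bmper 0.35 (SE 0.176). Of 8 other osteogenic transcription factors 4 were higher and 4 lower, none with an unadjusted p under 0.05, with Msx2 at −0.50 (SE 0.330), Dlx6 at −0.20, Msx1 at −0.15 and Atf4 at 0.09.

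Of the RANKL axis and osteoclast-type genes 6 were tested, 4 lower and 2 higher, with the lowest median of the lists, −0.21. Atp6v0d2, a proton pump subunit of osteoclasts and macrophages, was at 10.6 to 32.2 CPM in controls and at 28.8 CPM in A2 against 2.21 to 14.5 CPM in the other AZ6983 mice. Its log2 fold change was −0.999 (SE 0.516, adjusted p = 0.521 from edgeR). Ocstamp, needed for osteoclast fusion, was low, at 0.372 to 0.578 CPM in controls and 0.149 to 0.408 CPM in AZ6983 mice. Ocstamp had a log2 fold change of −0.60 (SE 0.238, unadjusted p = 0.0256 from edgeR), Acp5 −0.20 (SE 0.139) and Car2 0.36 (SE 0.278). Of the receptors and proteases of osteopontin 8 were tested, 4 higher and 4 lower. The integrin subunit Itga4 was at 21.1 ± 6.45 in control and 29.2 ± 5.69 CPM in AZ6983 mice (mean ± SD, n = 6 per group), a log2 fold change of 0.47 (SE 0.196, adjusted p = 0.466), and Itgb3, Itgb1 and Itga9 had 0.27, −0.13 and 0.13.

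**Figure D5:**
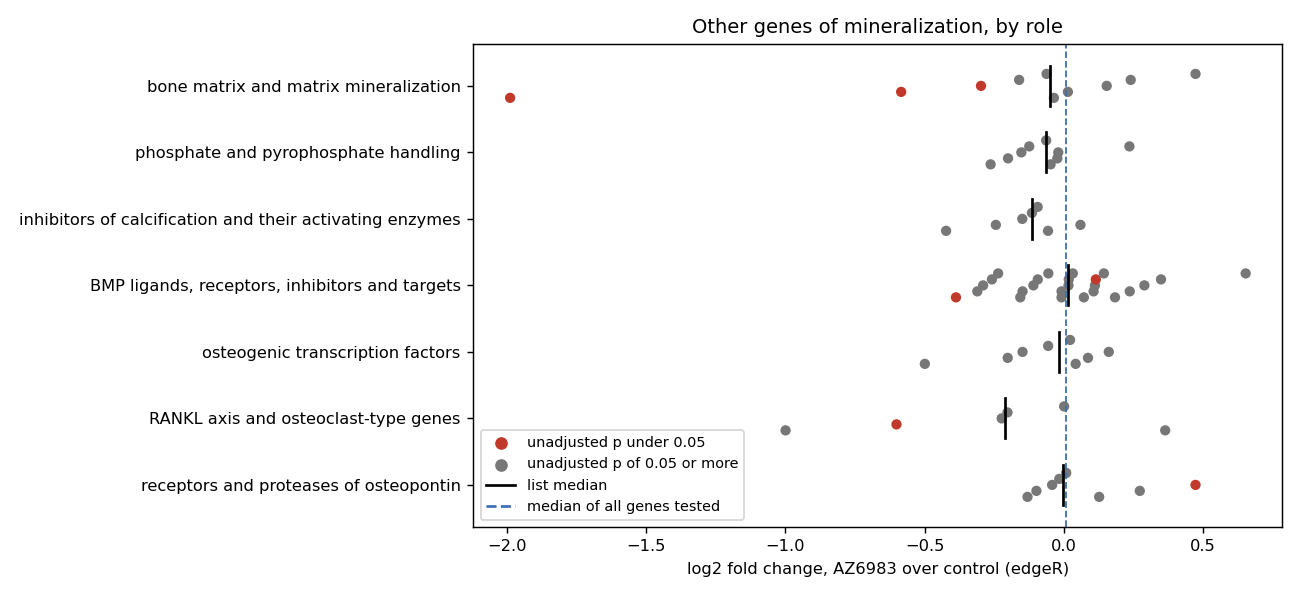
Log2 fold change of AZ6983 over control (edgeR) for the 73 tested genes of 7 lists of other mineralization genes, with red points for an unadjusted p under 0.05, black bars at each list's median and a dashed line at the median of all tested genes (0.0090). The points lie on both sides of 0 in every list, and the 7 red points are 5 below and 2 above it.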

How the data were processed

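Thoracic aortas were snap frozen and total RNA was depleted of ribosomal RNA, made into stranded libraries and sequenced from both ends by 75 bases. The authors deposited raw counts per gene symbol for 12 mice. The submitters' processing notes name CASAVA 1.8.2, STAR 2.5.2b, HTSeq 0.6.1p1 and the build mm10, without parameters. The annotation and the strand setting of the counting are not given in the sources used here. Rows that name no gene entered neither library sizes nor tests and held reads on no gene (8.02% to 14.9% of each library), reads aligned to more than 1 place (18.1% to 23.2%) and ambiguous reads (0.606% to 0.698%). Without selection of poly(A) RNA, unspliced transcripts add to the counts.

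Mice were grouped by sample title. The table's column for A1 carries 3 of the 4 digits of its mouse number, and the other 11 columns carry the full number. AZ6983 and control mice were compared by edgeR 4.0.16 under R 4.3.3 (TMM, filterByExpr, quasi-likelihood, no covariate) on 15857 genes, with Benjamini-Hochberg adjustment and 10% FDR. The standard error (SE) is |log2 fold change| over the root of F. Single genes were also compared by exact permutation of log2(CPM + 0.5) over 924 assignments of mice, two-sided, whose smallest p is 0.00216. P-values set the difference between the groups against the variation between these mice.

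Alternatives were DESeq2 1.42.0 (the authors' tool), limma-voom (limma 3.58.1), other normalizations and filters, a covariate for the share of reads assigned to no gene, each mouse left out in turn, and, chosen after seeing the data, C5 and C6 left out together. The members and gene lists were chosen with earlier results of these data known. Beyond the members, the text names the 4 genes of smallest p per pathway list. It names the 3 defining markers of the macrophage, neutrophil, cartilage and smooth muscle lists. Of the T cell, brown fat and white adipocyte lists only sums are given. Lists of endothelial, adventitial fibroblast, skeletal muscle and red cell markers were also computed and are not described here. The 5 genes nearest by Pearson r are named for Spp1, Ibsp and Mgp, and the nearest 1 for Alpl, Enpp1, Ank, Bmp2 and Runx2. Cytl1, Clec3a, Dmp1, Mepe and Bglap2 were named after their values were seen. Positions and exon lengths are from GENCODE M21 and promoters from RefSeq, both on GRCm38. Of the members' promoter windows, 1 of Spp1 is shown and the others are not reported here. The steps were tested on simulated data. Counts set the precision of each value, and floors cover counting error only.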

Additional observations from a re-analysis of the deposited data

Results flagged for a closer look

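In 2 scales, the highest or lowest mouse of each group was compared with the other 5 for the 8 tested members and 28 further mineralization genes. On the CPM scale 3 of 72 groups had a mouse far from the others, where chance gives about 3.6, and on the log2 scale 4 of 72. Spp1 in A2 was at 347 CPM, against 18.5 to 65.4 CPM in the other AZ6983 mice. Tnn in A2 was at 1.29 CPM, against 0 to 0.261 CPM in the other AZ6983 mice. Itga9 in C6 was at 568 CPM, against 364 to 426 CPM in the other controls, and was also far from them on the log2 scale, at 9.15. On the log2 scale A5 was low for Sost at 7.91, against 8.67 to 8.99 in the other AZ6983 mice, for Ahsg at 1.95, against 2.64 to 2.95, and for Itgb1 at 9.90, against 10.29 to 10.51.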

How the results depend on the processing

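The number of all tested genes past 10% FDR was 0 with edgeR, 92 with DESeq2 at its defaults, 84 with DESeq2 on the genes kept by the filter, 4 with limma-voom with quality weights, 0 to 27 with 1 mouse left out (27 without A5) and 1 without C5 and C6. Members past 10% FDR numbered 0, except 1 with either form of DESeq2 (Ibsp), and 0 of the other mineralization genes passed under any alternative. Members whose groups did not overlap numbered 0, with 0 to 1 when 1 mouse was left out (1 without A2, Spp1). The log2 fold change of Alpl was 0.23 and that of Bmp2 −0.10 once the share of reads assigned to no gene was a covariate, and that of Runx2 was −0.08 to 0.36 with 1 mouse left out (−0.076 without C2, −0.05 without C3 and −9.15e-05 without A5). Spp1, Ibsp, Mgp, Enpp1 and Ank kept a negative fold change under every alternative run, between −2.86 and −0.71, −3.52 and −0.84, −0.65 and −0.19, −0.28 and −0.09, and −0.21 and −0.08. Unadjusted permutation p-values of Ibsp were 0.0541 to 0.0909 without any one AZ6983 mouse, those of Spp1 were 0.0519 without A4, A5 or A6 and 0.1 without C5 and C6, and those of Mgp were 0.0584 without C1, 0.0563 without C4 and 0.0619 without C5 and C6. The cause of these changes was not tested. No paired analysis was possible because the labels give the groups no shared replicate numbers. Counts under about 10 per mouse limit Bglap and Sp7.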
